A study of Homo sapiens with 24 samples.

Results

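A set of 10 genes tied to the p53 stress response was followed across HCC827 cells, a human lung adenocarcinoma line driven by a mutant EGFR. They are MDM2, GADD45A, GADD45B, SESN1, RRM2B, ZMAT3, FAS, TP53INP1, GDF15 and BTG2, picked by symbol from the deposited gene table, and all 10 were found among the 19932 genes used. The study asked how a circular RNA made from the ATF6 locus, cATF6, bears on the response to inhibitors of EGFR such as osimertinib. Cells were labelled Parental, DTP (a drug-tolerant persister state) or Resistant (acquired resistance), and each state carried either an empty vector (EV, genotype WT in the labels) or overexpressed cATF6 (OC). With 3 libraries in each of these 6 groups, 18 libraries entered every gene comparison. The labels do not give the drug, dose or time behind the DTP and Resistant states. They also do not say whether a line was 1 clone or a pool, or whether replicates came from separate cultures. So p-values measure only the spread between libraries, which may be technical. The fit pooled that spread over all 6 groups for each gene, so a noisier group did not get a wider standard error. The 6 other libraries, DMSO or osimertinib (Osi) for 10 days, had usable values for circular RNAs only.

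The protein p53 is a transcription factor that accumulates after DNA damage and other stress. It binds response elements made of a pair of adjacent decamers and raises genes that halt the cell cycle, repair DNA, limit oxidative and metabolic stress, or start cell death, and it also raises MDM2, whose product ubiquitinates p53 and so closes a feedback loop. Several of these genes have other inputs too: GADD45B answers TGF-beta and NF-kB, GDF15 and GADD45A answer the integrated stress response, and SESN1 and BTG2 answer FOXO factors or growth signals. Counts of its target genes do not measure the amount or activity of p53 protein.

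To show what a p53 element looks like at these genes, the sequence before the start sites was searched for the p53 response element consensus (20 letters, 2 decamers with no spacer, read on both strands), using RefSeq promoter windows of build GRCh38.p14 that run from 250 bases before to 50 after a start site. Of the 10 genes, 7 had at least 1 window and together had 15; GADD45A, RRM2B and TP53INP1 had none there. One of the closest matches lay in the second MDM2 promoter, the one inside the first intron through which p53 is known to act. Its 250 upstream bases, plus strand, chr12:68808767-68809016, are printed below with the match in capitals, at -94 from the start site.
MDM2: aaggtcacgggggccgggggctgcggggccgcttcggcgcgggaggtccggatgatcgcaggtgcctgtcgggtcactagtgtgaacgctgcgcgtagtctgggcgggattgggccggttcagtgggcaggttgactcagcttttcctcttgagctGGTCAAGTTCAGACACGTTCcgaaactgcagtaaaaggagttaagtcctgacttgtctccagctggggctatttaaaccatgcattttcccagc
The MDM2 match had 18 of 20 letters, and so did the best match of a FAS window on chromosome 10 (plus strand, at -122). SESN1 on chromosome 6 (minus strand, at -49) and GDF15 on chromosome 19 (plus strand, at 29) had 17 letters. Besides that of MDM2, these were the closest matches found, and no link between their letters and the levels of the genes was tested.
FAS: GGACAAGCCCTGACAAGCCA
SESN1: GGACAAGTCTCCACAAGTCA
GDF15: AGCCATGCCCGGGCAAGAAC
Matches of 18 letters or more were found in 0.649% of all 35116 windows, those of 17 or more in 5.2% and those of 16 or more in 25.977%. Each share is per window, while the value of a gene is the best over all its windows. The windows of MDM2, FAS and SESN1 without the matches named here reached 15 letters. ZMAT3 and BTG2 reached 16 letters and GADD45B 15, a length that 70.506% of windows reach. A match describes these letters only and is not evidence of binding.

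Several facts of the libraries touch all results. Totals ran from 30075330 to 45068508 counts. The check of the overexpression is ATF6, whose mean went from 2933 to 18080 scaled counts with OC in Parental cells, from 3279 to 20860 in DTP and from 2094 to 32120 in Resistant cells; circular and linear ATF6 RNA are counted together. Resistant libraries carry a library series of their own and stood apart on the first principal component (75.9% of the variance), so that state and series cannot be told apart. DTP EV replicate 1 stood apart from its group: chi-square per degree of freedom was 56.7 and 56 against replicates 2 and 3, against 17.2 between replicates 2 and 3 and 5.38 to 7.41 within Parental EV. Markers of cell types moved with the states. Summed scaled counts of 5 epithelial markers (EPCAM, KRT8, KRT18, KRT19 and CDH1), none of them at 0, were 210400 to 235000 in Parental, 138500 to 161500 in DTP and 774000 to 861700 in Resistant libraries. Those of 5 fibroblast markers were 520.4 to 740.7, 1362 to 1703 and 590.1 to 943, and PDGFRA was at 0 in Parental libraries. The 4 endothelial markers summed to 131.5 to 182.9, 175.9 to 452.5 and 561 to 1058, with KDR at 0 in Resistant libraries. The 5 immune markers summed to 3514 to 5496, 1016 to 2560 and 43810 to 59570, nearly all of it CD68 in Resistant cells, with MS4A1 at 0 in every library. Such sums weigh abundant markers most: the median log2 fold change of the 5 epithelial markers in Resistant EV against Parental EV was 0.52. All libraries are labelled as the HCC827 line, so these sums describe marker RNA in that line and not numbers of other cell types. Such bulk libraries cannot tell a change in some of the cells from a change in all of them.

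All 10 genes passed the minimum for testing and differed widely in how far they moved. The ratio of the highest to the lowest of the 6 group means was 17.4 for GDF15, 9.32 for GADD45B, 8.99 for SESN1, 8.25 for GADD45A and 8.22 for TP53INP1. It was 7.61 for BTG2, 5.01 for FAS, 4.83 for ZMAT3, 2.78 for RRM2B and 1.80 for MDM2, the feedback gene, which moved least. The genes did not move as a block: of 45 pairs, 22 had a positive and 23 a negative Pearson correlation over the 18 libraries. The highest were GADD45B with TP53INP1 (0.976) and FAS with BTG2 (0.93), and the lowest was TP53INP1 with GDF15 (-0.94). These describe 6 groups and 2 library series that all genes share, and carry no test.

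**Figure D1:**
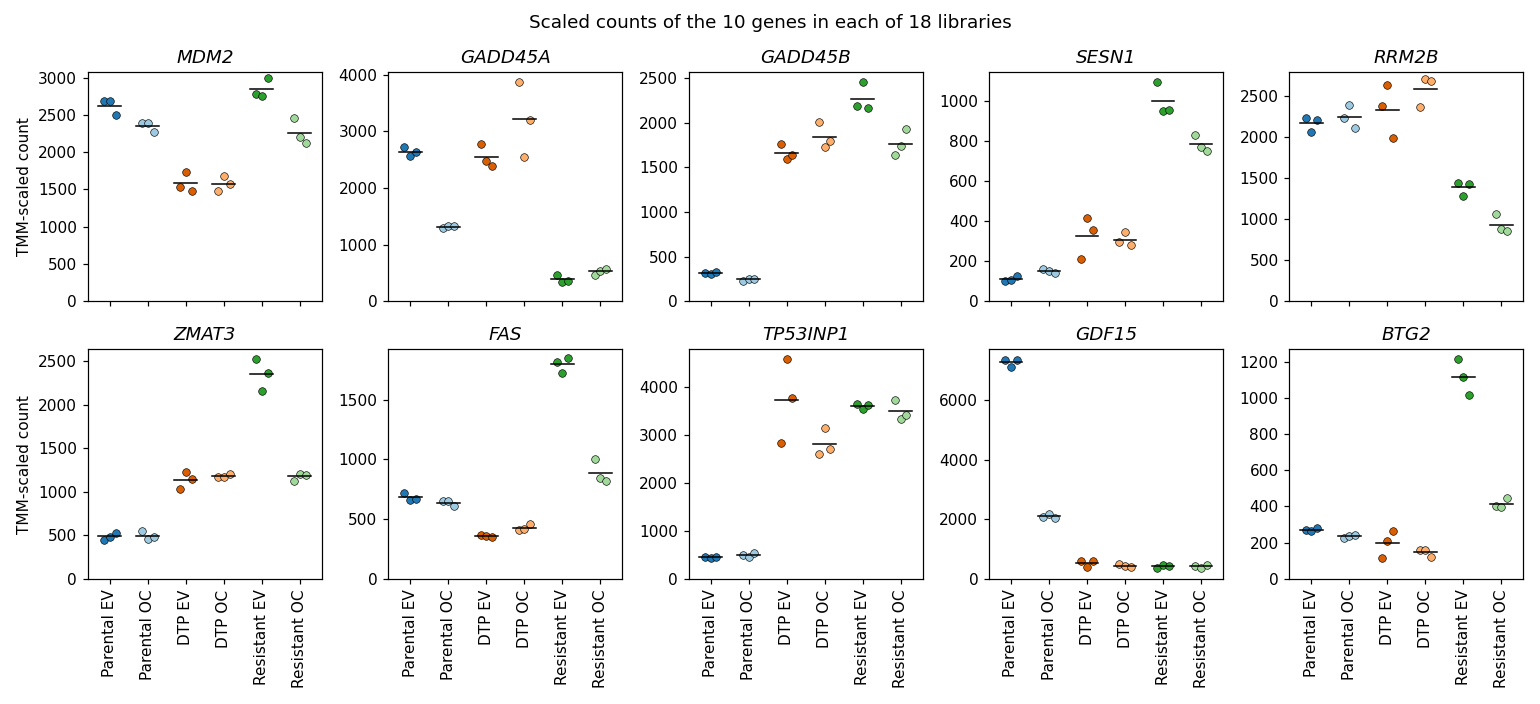
TMM-scaled counts (linear axes from 0) of each of the 10 genes in 3 libraries of each of 6 groups, with points for libraries and a line at the group mean. GDF15 was high in Parental libraries only, GADD45B and TP53INP1 were low in them, and FAS and BTG2 were highest in Resistant EV.

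The first question was how these genes differ between drug-tolerant and parental cells. In DTP EV against Parental EV the genes split evenly: GADD45B, SESN1, ZMAT3 and TP53INP1 rose, while MDM2, FAS, GDF15 and BTG2 fell, and GADD45A and RRM2B were not called. A gene is called where limma with Benjamini-Hochberg adjustment over 15155 genes gives an adjusted p under 0.05. So 8 of 10 were called against a background of 57.1% of all genes tested (28.7% higher, 28.3% lower). The median log2 fold change was 0.02 for the 10 and 0.0 for all genes. In the same comparison 3 of 4 tested fibroblast markers were higher and 0 lower. Of 4 endothelial markers 3 were higher and 1 lower, and of 5 epithelial markers 0 were higher and 4 lower. Of 2 tested immune markers 0 were higher and 1 lower. The part of these markers in the values of the 10 genes was not tested.

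Resistant cells were set against parental cells in the same way, to describe acquired resistance. GADD45B, SESN1, ZMAT3, FAS, TP53INP1 and BTG2 rose in Resistant EV, GADD45A, RRM2B and GDF15 fell, and MDM2 was not called. The 9 of 10 called compare with a background of 82.3% (38.6% higher, 43.7% lower), and the median was 1.71 for the 10 against -0.10 for all genes. Beside this, 3 of 5 epithelial markers were higher and 1 lower, and 2 of 4 endothelial markers were higher and 1 lower. Of 2 tested immune markers 1 was higher and 0 lower, and 0 of 4 tested fibroblast markers were called. The part of these markers was likewise not tested. Against DTP EV, 6 rose and 2 fell in Resistant EV (background 80.8%, with 37.6% higher and 43.2% lower), with medians of 0.65 and -0.10. These 3 comparisons share libraries, so each gene's values are given side by side below, in the order of roles.

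MDM2, the ubiquitin ligase that restrains p53, had 2686, 2685 and 2503 scaled counts in the Parental EV libraries, 1536, 1727 and 1477 in DTP EV, and 2774, 2760 and 3001 in Resistant EV. All 3 DTP libraries lay below the other 6. MDM2 was 1.66-fold lower in DTP than in Parental EV (log2 -0.73, SE 0.07, adjusted p = 1.52e-07) and 1.80-fold higher in Resistant than in DTP EV. Resistant and Parental EV differed by 0.12 on the log2 scale (adjusted p = 0.132, from 0.0448 to 0.728 over the alternatives), and the libraries did not overlap. MDM4, the other main inhibitor of p53 and a paralog of MDM2, was at 1312 ± 67.5, 1295 ± 120 and 2602 ± 167 (SD, n = 3) in Parental, DTP and Resistant EV, higher by 0.99 in Resistant than in Parental EV.

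GADD45A and GADD45B are stress sensors that bind PCNA, CDK1 and the kinase MAP3K4, and they parted. GADD45A stood at 2724, 2563 and 2638 in Parental EV, 2770, 2478 and 2382 in DTP EV, and 456.7, 346.0 and 364.8 in Resistant EV. The first 2 groups overlapped, and every Resistant library was far below both: the gene was 6.82-fold lower in Resistant than in Parental EV (log2 -2.77, SE 0.13, adjusted p = 1.88e-12). GADD45B stood at 314.2, 300.8 and 322.7, then 1767, 1589 and 1639, then 2183, 2459 and 2166. No groups overlapped. GADD45B was 5.31-fold higher in DTP than in Parental EV (log2 2.41, SE 0.08) and 7.23-fold higher in Resistant than in Parental EV (log2 2.85). Resistant EV was also 1.36-fold above DTP EV (log2 0.45, adjusted p = 9.18e-05). The third paralog, GADD45G, was low throughout, with 10.1, 26.6 and 78.3 counts, and was called higher in both DTP and Resistant EV against Parental EV.

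BTG2, an antiproliferative protein that recruits the CCR4-NOT deadenylase, had 268.9, 264 and 280.9 scaled counts in Parental EV, 115.5, 209.7 and 263.1 in DTP EV, and 1212, 1112 and 1015 in Resistant EV. DTP EV was spread wide, and its highest library lay just under the lowest of Parental EV. BTG2 was 4.08-fold higher in Resistant than in Parental EV (log2 2.03, SE 0.21, adjusted p = 1.06e-07). Its fall in DTP EV (log2 -0.55, SE 0.21, adjusted p = 0.035) rested on DTP EV replicate 1: without it the value was -0.21 (adjusted p = 0.218), and over the alternatives the adjusted p ran from 0.00257 to 0.218. The call was also lost where any 1 Parental EV library or the 6 Resistant libraries were left out, and where only the 2 groups were fitted. Its paralog BTG1 rose by 1.54 in Resistant over Parental EV, while BTG3 fell by 3.14.

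SESN1, a sestrin that restrains mTORC1 and aids antioxidant defence, had 99.71, 106.8 and 127.2 in Parental EV, 211.3, 417.2 and 352.7 in DTP EV, and 1094, 949.5 and 955.5 in Resistant EV. The 3 states did not overlap, and the lowest DTP value was that of replicate 1. SESN1 was 2.83-fold higher in DTP (log2 1.50, SE 0.18; 1.79 without DTP EV replicate 1) and 8.94-fold higher in Resistant than in Parental EV (log2 3.16, adjusted p = 5.56e-11). The other sestrins did not share the rise in Resistant EV: SESN2 fell by 1.83 there against Parental EV, from 1073 to 304.2. SESN3 rose by 2.12 in DTP EV and was nearly absent from Resistant EV, with means of 73.1, 338.5 and 6.25.

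RRM2B, the p53-inducible small subunit of ribonucleotide reductase that supplies deoxynucleotides outside S phase, moved little. Its libraries had 2229, 2064 and 2212 in Parental EV, 2381, 2628 and 1984 in DTP EV, and 1443, 1282 and 1430 in Resistant EV. The first 2 groups overlapped, and Resistant EV was 1.57-fold lower than Parental EV (log2 -0.65, SE 0.10, adjusted p = 1.26e-05). The other subunits fell further, each against Parental EV. RRM2, the S-phase small subunit, had log2 fold changes of -1.43 in DTP and -2.21 in Resistant EV. RRM1, the large subunit, had -1.16 and -2.29.

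ZMAT3, an RNA-binding zinc finger protein that acts on splicing, was lowest in Parental EV and highest in Resistant EV. It had 444.2, 485.3 and 530.5 in Parental EV, 1030, 1226 and 1148 in DTP EV, and 2530, 2160 and 2362 in Resistant EV. It was 2.33-fold higher in DTP (log2 1.22, SE 0.09, adjusted p = 5.39e-09) and 4.83-fold higher in Resistant than in Parental EV (log2 2.27), with no overlap of the 3 states.

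FAS, the death receptor that recruits FADD and caspase 8, had 716.1, 661.3 and 667.2 in Parental EV, 369.3, 356.0 and 351.6 in DTP EV, and 1819, 1725 and 1848 in Resistant EV. Like BTG2 it was lower in DTP and higher in Resistant EV than in Parental EV, and the 3 groups did not overlap: it was 1.90-fold lower in DTP (log2 -0.92, SE 0.08, adjusted p = 6.16e-08) and 2.64-fold higher in Resistant than in Parental EV (log2 1.40, adjusted p = 4.67e-11). Between DTP and Resistant EV the difference was 5.00-fold. Among its partners, CASP8 fell by 0.63 and FADD rose by 0.37 in DTP EV, while the ligand FASLG had means of at most 1.19 counts in any group and was not tested.

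TP53INP1, a nuclear stress protein that aids p53 phosphorylation and autophagy, had 458.3, 440 and 463.2 in Parental EV, 2839, 4587 and 3769 in DTP EV, and 3660, 3555 and 3633 in Resistant EV. DTP and Resistant EV were both far above Parental EV and overlapped each other. The rise was 8.05-fold in DTP (log2 3.01, SE 0.12, adjusted p = 6.14e-12) and 7.95-fold in Resistant EV (log2 2.99), and the difference between them was -0.02 (adjusted p = 0.898, from 0.0472 to 0.997 over the alternatives; -0.21 without DTP EV replicate 1). Its paralog TP53INP2, known for autophagy, rose by 2.41 and 2.30.

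GDF15, a secreted cytokine of stressed cells that signals to the brainstem receptor GFRAL, had 7338, 7104 and 7348 in Parental EV, 612.2, 391.3 and 587.9 in DTP EV, and 353.2, 466.2 and 437.3 in Resistant EV. It was 13.9-fold lower in DTP (log2 -3.80, SE 0.14, adjusted p = 2.72e-12) and 17.4-fold lower in Resistant than in Parental EV (log2 -4.12). DTP and Resistant EV overlapped and differed by -0.32 (adjusted p = 0.0501, from 0.000599 to 0.485 over the alternatives), a difference that passed without DTP EV replicate 2 (adjusted p = 0.000599) or without Resistant EV replicate 2 (0.0288).

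**Figure D2:**
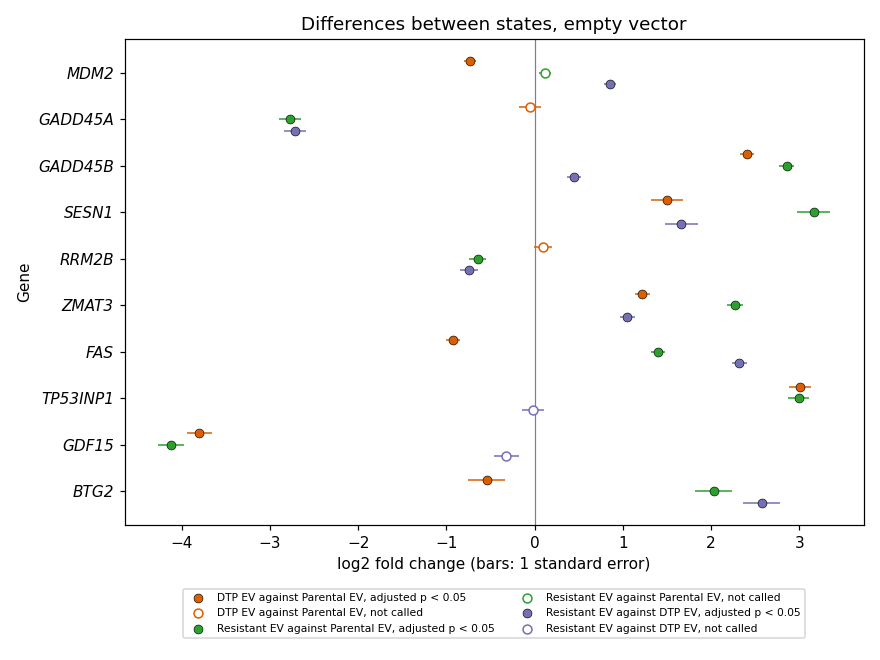
Log2 fold changes of the 10 genes between states with the empty vector, with bars of 1 standard error, filled points where the adjusted p is under 0.05 and open points where it is not. GADD45B, SESN1, ZMAT3 and TP53INP1 lie right of 0 for both DTP and Resistant against Parental EV, GDF15 lies left of 0 for both, and FAS and BTG2 lie on opposite sides.

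The second question was what cATF6 overexpression did in each state. In Parental cells, 3 of 10 genes fell and none rose (background 14.1%, with 6.04% higher and 8.05% lower). GDF15 fell most: the OC libraries had 2084, 2170 and 2025 against at least 7104 in EV, a 3.47-fold difference (log2 -1.79, SE 0.14, adjusted p = 7e-07). GADD45A had 1295, 1328 and 1332 with OC and was 2.00-fold lower (log2 -1.002, SE 0.13, adjusted p = 5.21e-05). For both, every OC library lay below every EV library. GADD45B, at 225.5, 253.5 and 251.2, was 1.28-fold lower (log2 -0.36, adjusted p = 0.00644), and voom lost that call (adjusted p = 0.113, the highest of a range from 0.00624). MDM2 (log2 -0.16, adjusted p = 0.144) and SESN1 (log2 0.44, adjusted p = 0.13) did not overlap between EV and OC and passed only where the 2 groups were fitted alone (0.00722 and 0.0211, the lowest of ranges up to 0.348 and 0.329). The median was -0.13 for the 10 and 0.0 for all genes.

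In DTP cells with OC, FAS was called higher and TP53INP1 lower. These 2 of 10 are a share near the background of 18.4% (9.53% higher, 8.84% lower). FAS had 404.9, 418.3 and 456.2 with OC (log2 0.25, SE 0.08, adjusted p = 0.0438) and did not overlap EV. TP53INP1 had 2600, 3160 and 2720 with OC (log2 -0.38, SE 0.12, adjusted p = 0.042) and overlapped EV. Neither call held where DTP EV and DTP OC were fitted alone (adjusted p = 0.222 and 0.18, from ranges of 0.0329 to 0.222 and 0.000224 to 0.213). TP53INP1 was -0.22 without DTP EV replicate 2 (adjusted p = 0.213) and -0.56 without DTP EV replicate 1, which is the lowest of its group. Without that replicate 1 the calls were 4, 2 in each direction, adding GADD45A (0.38, adjusted p = 0.0496) and BTG2 (-0.69, adjusted p = 0.00113). GADD45A had 3875, 2552 and 3208 with OC, the widest spread of any group for this gene (log2 0.32, adjusted p = 0.0909, from 0.0132 to 0.382 over the alternatives).

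Resistant cells showed the broadest change: MDM2, GADD45B, RRM2B, ZMAT3, FAS and BTG2 fell with OC and GADD45A rose, 7 of 10 against a background of 36.8% (16.3% higher, 20.5% lower). The median was -0.36 for the 10 and -0.02 for all genes. BTG2 had 402.9, 397.7 and 445.6 with OC and fell 2.67-fold (log2 -1.42, SE 0.21, adjusted p = 6.28e-05). FAS had 1006, 842.9 and 817.7 and fell 2.03-fold (log2 -1.02, SE 0.08, adjusted p = 1.03e-07). ZMAT3 had 1125, 1209 and 1196 and fell 1.99-fold (log2 -0.996, SE 0.09, adjusted p = 2.99e-07). In all 3 genes the OC libraries lay below the EV libraries by more than the range within either group.

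RRM2B, with 1062, 876.2 and 858 in Resistant OC, was 1.49-fold lower (log2 -0.58, adjusted p = 0.000262), GADD45B 1.29-fold lower (log2 -0.36, adjusted p = 0.00228) and MDM2 1.26-fold lower (log2 -0.33, adjusted p = 0.00126). GADD45A had 470.6, 541.4 and 570.8 with OC and was 1.36-fold higher (log2 0.44, adjusted p = 0.0109), a call that voom lost (adjusted p = 0.116, the highest of a range from 0.00318). SESN1 had 830.2, 770.5 and 751.5, all below the EV libraries, and did not pass (log2 -0.35, adjusted p = 0.159, from 0.018 to 0.341 over the alternatives). TP53INP1 (log2 -0.05, adjusted p = 0.812) and GDF15 (log2 0.00, adjusted p = 1) overlapped between Resistant EV and OC. GDF15, the gene that fell most with OC in Parental cells, was thus at 418.9 ± 58.7 in Resistant EV and 418.5 ± 53 in Resistant OC (SD, n = 3).

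**Figure D3:**
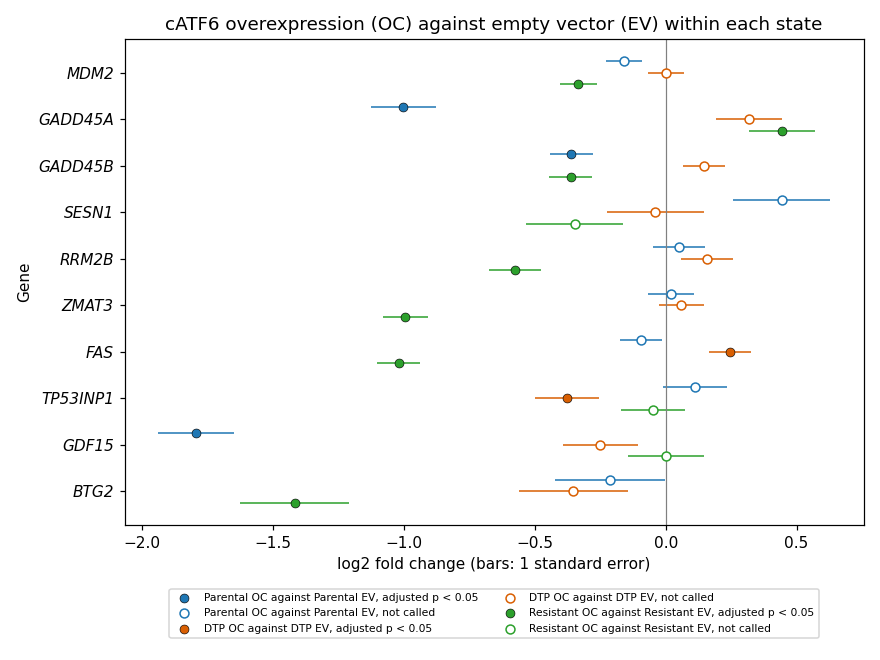
Log2 fold changes with cATF6 overexpression of the 10 genes in Parental, DTP and Resistant cells, with bars of 1 standard error, filled points where the adjusted p is under 0.05 and open points where it is not. GDF15 and GADD45A stand lowest in Parental cells, and BTG2, FAS and ZMAT3 in Resistant cells.

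Whether the effect of OC differed between states was tested as an interaction. Between DTP and Parental cells 3 of 10 differed (background 9.95%, with 5.48% higher and 4.47% lower): the OC effect was higher in DTP cells for GDF15 by 1.55 on the log2 scale (SE 0.20, adjusted p = 0.000264), for GADD45A by 1.32 (SE 0.18, adjusted p = 0.00028) and for GADD45B by 0.51 (adjusted p = 0.0111). Between Resistant and Parental cells 7 of 10 differed (background 30.4%, with 14.2% higher and 16.1% lower). The OC effect was higher in Resistant cells for GDF15 (1.80) and GADD45A (1.45), and lower for BTG2 (-1.20), ZMAT3 (-1.02), FAS (-0.93), SESN1 (-0.79) and RRM2B (-0.63). Between Resistant and DTP cells 6 of 10 differed (background 30.5%, with 13.7% higher and 16.8% lower), all lower in Resistant cells: FAS (-1.27), BTG2 (-1.06), ZMAT3 (-1.06), RRM2B (-0.73), GADD45B (-0.51) and MDM2 (-0.33). By the test of the difference, the OC effect on GDF15 and GADD45A was lower in Parental than in DTP or Resistant cells, and that on FAS, ZMAT3, BTG2 and RRM2B was lower in Resistant than in either other state.

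The states were also compared within OC cells. In DTP OC against Parental OC, 5 of 10 rose and 4 fell (background 53.3%, 28.0% higher and 25.3% lower). GADD45B was 7.55-fold and TP53INP1 5.73-fold higher, GDF15 was 4.77-fold lower, and GADD45A, not called with EV, was 2.40-fold higher (log2 1.26, SE 0.13, adjusted p = 3.6e-07). In Resistant OC against Parental OC, 6 rose and 3 fell (background 82.0%, with 38.6% higher and 43.5% lower). The rise of ZMAT3 was 1.26 there against 2.27 with EV, of FAS 0.47 against 1.40 and of BTG2 0.82 against 2.03, and the fall of GDF15 was -2.33 against -4.12. In Resistant OC against DTP OC, 5 rose and 2 fell (background 81.6%, with 37.4% higher and 44.3% lower). ZMAT3 stood at 1177 ± 45.0 and 1180 ± 16.5 (SD, n = 3) in those 2 groups, which overlapped (adjusted p = 0.965).

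The order of the 6 groups differed by gene. MDM2 ran from Resistant EV through both Parental groups and Resistant OC to the DTP groups, whose libraries overlapped each other, as did those of Parental OC and Resistant OC. FAS had 6 groups in which no neighbours in the order overlapped: Resistant EV, Resistant OC, Parental EV, Parental OC, DTP OC and DTP EV. In GDF15 the 2 Parental groups were separate from each other and from the rest, and the other 4 overlapped with their neighbours. RRM2B overlapped across both DTP and both Parental groups, with the 2 Resistant groups apart below them.

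Other p53 targets give a setting for these 10. Of 45 further targets listed, 43 were tested, and in DTP EV against Parental EV 16 were higher and 19 lower, with a median of -0.18 on the log2 scale, where all genes ran 28.7% higher and 28.3% lower. In Resistant EV against Parental EV 21 were higher and 19 lower (median 0.18; all genes 38.6% and 43.7%), and against DTP EV 19 were higher and 18 lower (all genes 37.6% and 43.2%). CDKN1A, which encodes the cell cycle inhibitor p21, had 736.2 ± 16.2 in Parental EV, 719.9 ± 191 in DTP EV and 3389 ± 153 in Resistant EV (SD, n = 3). It was 4.60-fold higher in Resistant than in Parental EV (limma, adjusted p = 2.62e-10), and DTP and Parental EV overlapped (log2 -0.07, adjusted p = 0.705).

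Among those with the smallest p in the DTP comparison were PLK2, a stress kinase (log2 1.65), TRIM22, an antiviral ubiquitin ligase (3.69), and TNFRSF10B, a death receptor for TRAIL (-1.09). In Resistant against Parental EV they included PLK2 (3.31), TRIM22 (7.53) and ABCA12, a lipid transporter (-4.66). In Resistant against DTP EV, PLK2 (1.67), ABCA12 (-3.40) and SFN, a cell cycle inhibitor of the 14-3-3 family (2.10), were joined by CMBL, listed at 0 in DTP EV and at a mean of 2454 counts in Resistant EV. The death receptors parted: TNFRSF10B fell by 1.60 in Resistant against Parental EV, where FAS rose. TNFRSF10A, a further listed death receptor, had means of 1758 in Parental EV and 419.6 in Resistant EV.

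With OC, 3 of the 43 further targets rose and 13 fell in Parental cells, 4 rose and 7 fell in DTP cells, and 11 rose and 5 fell in Resistant cells. All genes ran 6.04% higher and 8.05% lower in Parental, 9.53% and 8.84% in DTP, and 16.3% and 20.5% in Resistant cells. The medians of the 43 were -0.04, 0.05 and 0.04 on the log2 scale. In Parental cells PLK2 (-0.59), BBC3, which encodes the death protein PUMA (-1.005), TRIM22 (-1.17), TNFRSF10B (-0.30) and CDKN1A (-0.51) fell. In DTP cells ABCA12 (-0.82), PLXNB2 (-0.54) and SUSD6 (-0.72) were called lower and PLK2 (0.31) higher, but a fit of the DTP groups alone called none of the 43. In Resistant cells PHLDA3, an inhibitor of AKT, rose by 0.93, PLK2 by 0.46 and ABCA12 by 0.97, while DRAM1, a lysosomal protein, fell by 0.88. CDKN1A did not pass there (-0.21, adjusted p = 0.273), where 6 of the 10 genes fell.

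**Figure D4:**
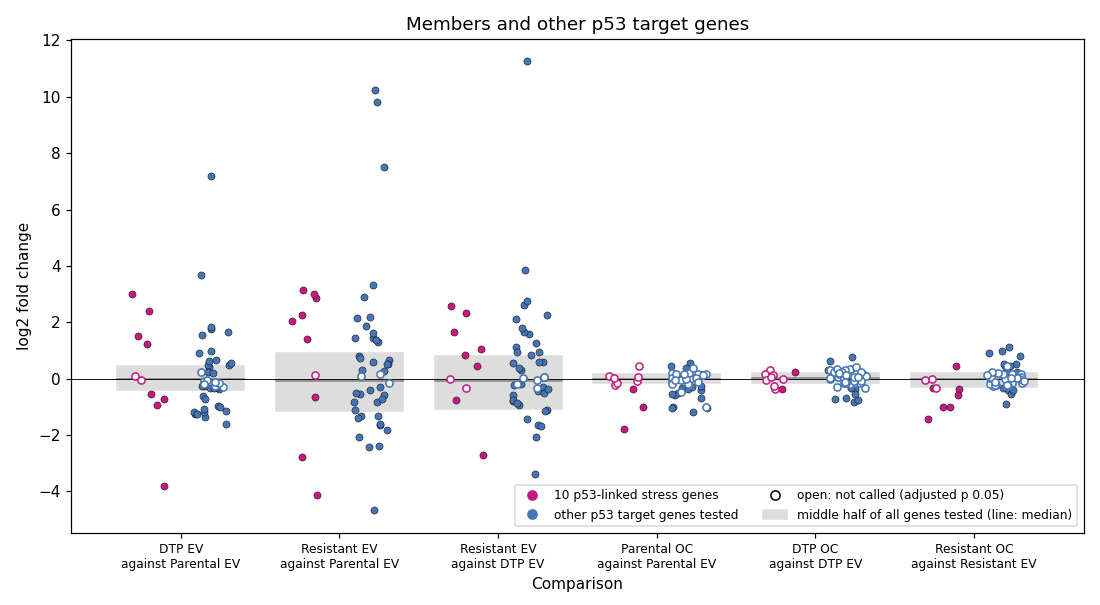
Log2 fold changes of the 10 genes and of 43 other p53 targets in 6 comparisons, with grey boxes for the interquartile range of all genes tested and open points for genes that were not called; fitted values near the top belong to genes at or near 0 in the other group. The members spread to both sides of 0 in the state comparisons and lie mostly below 0 with OC in Resistant cells.

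Regulators, partners and stress genes are counted here and below against the shares of all genes given above for the same comparison, 57.1% called in DTP and 82.3% in Resistant against Parental EV, and 14.1%, 18.4% and 36.8% with OC in Parental, DTP and Resistant cells. Of 18 regulators of p53, 4 were higher and 7 lower in DTP against Parental EV, and 5 higher and 11 lower in Resistant against Parental EV. With OC, 2 rose and 4 fell in Parental, 3 rose and 1 fell in DTP, and 1 rose and 6 fell in Resistant cells. MDM4 fell with OC in Parental (-0.38) and Resistant cells (-0.53). Of 19 paralogs and partners of the 10 genes, 18 were tested, and with OC in Resistant cells 6 rose and 5 fell. Among these, RRM2 fell by 3.78, from 1243 ± 77.9 to 93.9 ± 34.01 (SD, n = 3), BTG1 by 0.59 and RRM1 by 0.49, while SESN2 rose by 0.81 and TP53INP2 by 0.52.

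The integrated stress response, which runs through ATF4 and can raise GDF15 and GADD45A without p53, was followed through 8 genes. In DTP against Parental EV 1 rose and 6 fell, and in Resistant against Parental EV 2 rose and 5 fell, among them DDIT4 (-2.92 and -4.08) and DDIT3, which encodes CHOP (-1.27 and -1.61). ATF4 fell by 0.13 in DTP and rose by 0.71 in Resistant EV. With OC in Parental cells, where GDF15 and GADD45A fell, 4 of the 8 fell and none rose: DDIT3 (-1.60), PPP1R15A (-1.31), ATF3 (-1.18) and NUPR1 (-0.80). With OC in Resistant cells 5 rose, led by DDIT4 (1.96) and TRIB3 (1.04), and ATF3 (-0.89) and NUPR1 (-0.88) fell. With OC in DTP cells NUPR1 alone was called (-0.52). The part of these genes in the values of the members was not tested.

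The genes whose pattern over the 18 libraries was most like that of the widest-ranging members were found by Pearson correlation among genes with a mean of at least 100. For GDF15 they were TBC1D2B (0.980), PIM3 (0.976) and OSBP (0.970). For GADD45B they included TMEM86A (0.992) and CTIF (0.990), and for SESN1 they were SYTL2 (0.992), SCD5 (0.990) and SLC38A9 (0.988). Group differences between states dominate these values, and they carry no p.

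In the DMSO and Osi libraries, 1 circular RNA had a member as its host gene: hsa_circMDM2_001, hg19 chr12:69210592-69218431, plus strand, with a spliced length of 1017 bases. The 3 DMSO libraries had 0, 2 and 4 back-splice reads and the 3 Osi libraries had 0, so a difference was not detectable at this depth. It fell below the minimum for testing, and the authors' deposited table gives a log10 fold change of -0.392 with a p-value of 0.106 and an adjusted p-value of 0.668. Of the 789 circular RNAs tested with limma, 0 were called after adjustment and 110 had an unadjusted p under 0.05; a fit with no filter called 19 of 2997, one without the trend 36, and one with a pseudocount of 0.1 called 44.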

How the data were processed

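Per the labels' protocols, ribosomal RNA was removed from total RNA and directional libraries were made; the strand setting of the counting is not given in the sources used here. Build hg19 and the tools STAR, featureCounts, FastQC and MultiQC come from the submitters' processing notes. Gene values were deposited as log10(count + 1) with no scaling for depth: undoing the log10 gave whole numbers in 100% of cells (tolerance 1e-06). Its 22549 lines held 2557 named NewGene and 60 lines of 15 repeated symbols, which were left out; this left 19932 genes, 1788 of them without a count. Another sheet with 6 value columns that no label ties to samples was not used. The deposited circRNA table holds log10(reads + 1) and the authors' log10 fold changes, p-values and adjusted p-values.

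Recovered counts were scaled by the TMM method (trimmed mean of M-values, trimming 0.3 of ratios and 0.05 of abundances), logged as log2(scaled count + 1), and compared with limma 3.58.1 (R 4.3.3) in 1 trended fit over 18 libraries, which pools the spread over all groups. Genes with a scaled count of at least 10 in at least 3 libraries were tested (15155), at an adjusted p of 0.05 (Benjamini-Hochberg), in 9 comparisons and 3 interactions. A fold change is 2 to the power of the fitted value and understates the change of low genes. Circular RNAs that reached 2 reads in 3 or more of the 6 libraries were tested alike. The steps were tested on simulated data.

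The 10 genes and all lists were chosen with earlier results of these data known. Named in the text are the 10 genes, MDM4, CDKN1A, ATF6, up to 4 called further targets per comparison with the smallest p, paralogs and partners of a member, the 8 integrated stress genes, and for 3 members the 3 most correlated genes; some genes under this rule are not reported here. TNFRSF10B, PLK2 and TRIM22 recur under that rule. The values of TNFRSF10B and TNFRSF10A for Resistant and Parental EV were added after they were seen, to set them beside FAS. Alternatives were RLE size factors, quantile normalization, no filter, no trend, voom, a pseudocount of 0.1, a replicate block, only the groups compared, leaving out the 6 Resistant libraries, and leaving out each library.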

Additional observations from a re-analysis of the deposited data

Results flagged for a closer look

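The results below are differences in the effect of cATF6 overexpression (OC against EV) between 2 states, tested as interactions with limma and adjusted over all genes; values are differences on the log2 scale. Each was picked out because the effect under the same contrast differed between states. None of these values is explained here.

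Between DTP and Parental cells, the OC effect was higher in DTP cells for GADD45A (1.32), GADD45B (0.51) and GDF15 (1.55). The GADD45B difference was lost with voom (adjusted p = 0.0586, the highest of a range from 0.00404).

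Between Resistant and DTP cells, the OC effect was lower in Resistant cells for MDM2 (-0.33), GADD45B (-0.51), RRM2B (-0.73), ZMAT3 (-1.06), FAS (-1.27) and BTG2 (-1.06). The MDM2 difference did not pass with only the groups compared (adjusted p = 0.07, from a range of 0.00551 to 0.07), without DTP OC replicate 2 (0.0523) or without Resistant OC replicate 3 (0.0504), nor the BTG2 difference with quantile normalization (adjusted p = 0.0697, from a range of 0.00157 to 0.0697).

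Between Resistant and Parental cells, it was higher in Resistant cells for GADD45A (1.45) and GDF15 (1.80), and lower for SESN1 (-0.79), RRM2B (-0.63), ZMAT3 (-1.02), FAS (-0.93) and BTG2 (-1.20). The SESN1 difference passed in 13 of 21 settings (adjusted p from 0.00199 to 0.0747). Each OC effect was taken within 1 state and so within 1 series. Resistant libraries are a series of their own, so a difference of effects between Resistant cells and either other state is also a difference between series. State and series cannot be told apart there. The mean of ATF6 with OC, given above, was also highest in Resistant cells.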

How the results depend on the processing

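Over the alternatives, 1808 of the 1910 recomputed member values kept their direction and their side of the threshold. Fitted with only the groups compared, OC against EV in Parental cells called 5 members (3 in the full fit) and 5698 genes (2135; 1389 to 1569 without 1 library). DTP OC against DTP EV was the least stable comparison: with only the groups compared it called 0 members, 0 of the other p53 targets and 65 genes, where the full fit called 2, 11 and 2785. Its member count was 1 with quantile normalization, 1 without the trend, 1 without the 6 Resistant libraries and 0 to 4 without 1 library, with 9 to 19 other targets and 1485 to 4654 genes. The highest of each came without DTP EV replicate 1. For the difference of the OC effect between DTP and Parental cells, leaving out 1 library gave 3 to 6 members (3), 7 to 18 other targets (10) and 943 to 3142 genes (1508). For that between Resistant and DTP cells it gave 12 to 22 other targets (15). Called circRNAs went from 0 to 19 with no filter, 36 without the trend and 44 with a pseudocount of 0.1. The cause of these shifts was not tested.

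With the replicate number as a block, DTP OC against DTP EV called 0 members (FAS adjusted p = 0.0515, TP53INP1 0.0516), and the other 118 member results kept their side of the threshold. The numbers share no stated origin and did not pair the samples: of 45 same-numbered pairs of libraries 2 had deviations correlated over 0.1 (-0.161 to 0.148), and 5 of 18 libraries correlated best with their own number.

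Signs turned only for differences near 0 that were not called. For TP53INP1 in Resistant against DTP EV, RLE size factors gave 0.0134 and leaving out 1 library -0.2097 to 0.1365. MDM2 in DTP OC against EV was -0.007 with RLE, -0.0216 with only the groups compared, -0.0188 without the 6 Resistant libraries and -0.0496 to 0.0635 without 1 library. ZMAT3 in Resistant OC against DTP OC was 0.0436 with RLE, 0.0536 with quantile normalization, 0.0077 with only the groups compared and -0.0239 to 0.0309 without 1 library. GDF15 there was 0.2642 with quantile normalization and -0.1518 to 0.0308 without 1 library. GADD45B, Resistant minus Parental OC effect, was 0.0027 with RLE, 0.0011 with voom, 0.0016 with only the groups compared and -0.0652 to 0.06 without 1 library. Leaving out 1 library also turned SESN1 (-0.328 to 0.1614) and ZMAT3 (-0.011 to 0.1148) with OC in DTP, ZMAT3 with OC in Parental (-0.0465 to 0.0883), GDF15 with OC in Resistant (-0.1173 to 0.1031) and GADD45B in Resistant OC against DTP OC (-0.1281 to 0.0021). It did so too for RRM2B (-0.0076 to 0.1908), ZMAT3 (-0.0352 to 0.1049) and BTG2 (-0.4863 to 0.1084) in the DTP minus Parental OC effect, and GADD45A in the Resistant minus DTP OC effect (-0.0197 to 0.2789).

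Counts per gene do not separate transcripts, and reads shared between overlapping genes (FAS beside ACTA2) cannot be assigned here. State and library series cannot be told apart for Resistant cells.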
